A study of Mus musculus with 33 samples.

Results

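Bone marrow of mice given ruxolitinib, an inhibitor of the kinases JAK1 and JAK2, was compared with bone marrow of vehicle-treated mice on day 3 post-treatment. The comparison held 7 of the 33 mice of the study, and their labels of drug and day set which ones: 3 ruxolitinib-treated mice against 4 vehicle-treated mice of the same day, of which 2 had received the vehicle of ruxolitinib and 2 the vehicle of venetoclax, a BCL-2 inhibitor that the study tested beside it. All were wild-type C57BL/6 females aged 6-8 weeks, with no tumour and no transplant. Ruxolitinib, at 180 mg/ml in the labels and at the same figure per kg of body weight in the methods, and its vehicle of DMSO, polyethylene glycol and water were given by 2 oral gavages a day over 2 days, and the vehicle of venetoclax, made of Phosal, polyethylene glycol and ethanol, by 1 gavage a day. Total bone marrow RNA was measured on the NanoString nCounter, on which a fluorescent barcode is counted for every RNA molecule bound by a gene-specific probe, without amplification. Other mice of the study that are used here are ruxolitinib-treated and vehicle-treated mice of days 1 and 7 and venetoclax-treated mice of day 3, each drug group with 3 mice and the pooled vehicles of each day with 4.

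JAK kinases sit on the inner side of cytokine receptors and, once a cytokine binds, phosphorylate STAT factors that enter the nucleus and switch on target genes. In bone marrow, the interleukin-7 receptor signals through JAK1 and JAK3 in early lymphoid cells and is required for B lymphopoiesis in mice, the receptors for erythropoietin and thrombopoietin signal through JAK2, and the interferon receptors use JAK1 with TYK2 or JAK2. Early B cells pass through a pre-B cell stage at which the surrogate light chain, of which Igll1 is a part, is displayed with the newly made heavy chain, and the transcription factor Pax5 holds these cells in the B lineage.

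A normalised count is the count of a probe after each mouse was scaled by its housekeeping probes, and a fold change is given as log2 with its standard error (SE), from 1 edgeR quasi-likelihood model of all 33 mice. A gene was called when its Benjamini-Hochberg adjusted p over the 655 tested genes was under 0.05. The 7 mice differed in depth. Ruxolitinib mouse 1 gave 26881 endogenous counts against 114050 to 342596 in the other 6 mice, only 33.6% of its endogenous probes were above background against 65.87% to 72.4%, and 126 of the 655 tested genes were at the lowest value of 1 count there, which equals a normalised count of 5.5. Ruxolitinib-vehicle mouse 2 stood apart from the other vehicle-treated mice: its profile of log2 normalised counts correlated most closely with ruxolitinib mouse 2, at 0.967, and less so with the other vehicle-treated mice, at 0.899 to 0.951, which correlated with each other at 0.969 to 0.975 (across genes, which are not independent). Key counts are given with and without these mice. All mice of day 3 were run together, so the comparison lies within 1 run, whereas a day and its run cannot be told apart.

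Ruxolitinib-treated marrow of day 3 gave lower normalised counts of early B lineage genes and higher counts of the transferrin receptor gene and of Cd36. Of 655 tested genes, 9 were called (1.37%), of which 7 were lower (1.07%) and 2 higher (0.305%); DESeq2 with its own size factors called 10, of which 9 were lower and 1 higher. Among those that fell were Igll1, Pax5, Rag1, Il7r, Cd22 and Dpp4, and those that rose were Tfrc and Cd36. In whole marrow, fewer cells of a type and less RNA per cell cannot be told apart. At an unadjusted p under 0.05 stood 79 genes (12.1%), 35 of them higher (5.34%) and 44 lower (6.72%). In 64 genes (9.77%) the ruxolitinib-treated and vehicle-treated mice did not overlap, with 29 higher (4.43%) and 35 lower (5.34%). The median log2 fold change over all tested genes was 0.05. Without the shallow ruxolitinib mouse 1, 7 genes were called, all among the same 9. Without ruxolitinib mouse 2, the deepest of the 3, 2 genes were called, of which Igll1 alone was among the 9. Without ruxolitinib-vehicle mouse 2, 33 genes were called, 18 higher and 15 lower, and these included all 9. Without venetoclax-vehicle mouse 1, 5 genes were called. Between the vehicle-treated groups of day 3, edgeR called 0 genes, with 16 (2.44%) at an unadjusted p under 0.05, and DESeq2 called 0. With 2 mice in each group, this test cannot show that the vehicles are alike. Against the vehicle of ruxolitinib alone 1 gene was called with ruxolitinib, and against that of venetoclax alone 12 were.

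**Figure D1:**
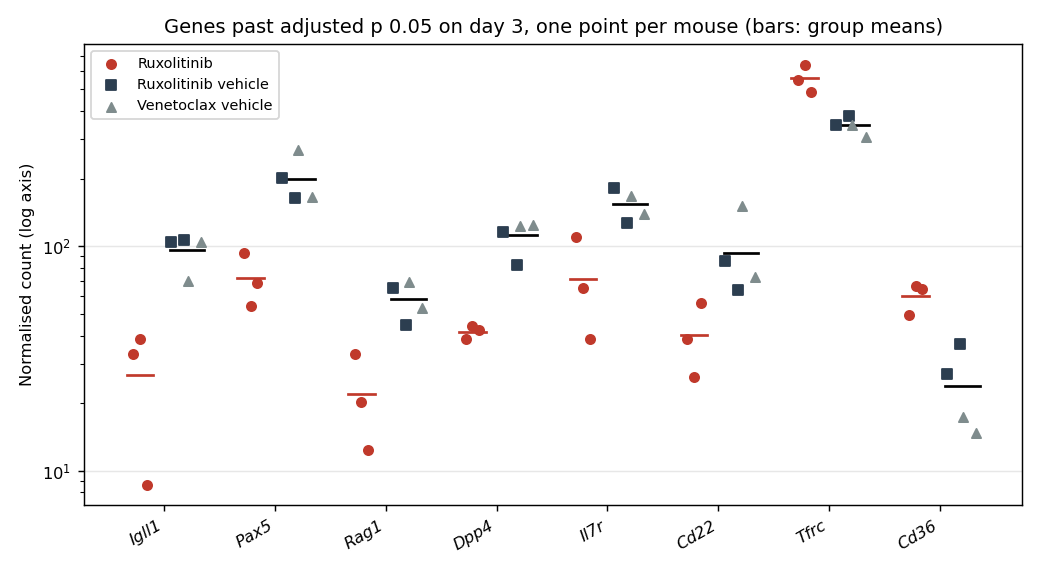
Normalised counts (log axis) of 8 of the 9 called genes in each mouse of day 3: red circles are the 3 ruxolitinib-treated mice, dark squares the 2 mice given the vehicle of ruxolitinib, grey triangles the 2 given the vehicle of venetoclax, and bars the means of the 3 and of the 4 mice. In each gene the ruxolitinib-treated mice lie on 1 side of all vehicle-treated mice.

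Igll1 encodes the lambda5 protein of the surrogate light chain and is made by pro-B and pre-B cells. Its normalised count was 33, 38.4 and 8.68 in ruxolitinib mice 1 to 3, against 104 and 107 in the mice given the vehicle of ruxolitinib and 70.3 and 104 in those given the vehicle of venetoclax. Every treated mouse was below every vehicle-treated mouse, and ruxolitinib mouse 3 was the lowest. The means were 26.7 ± 15.8 (SD, n = 3) and 96.4 ± 17.4 (SD, n = 4). The log2 fold change was -1.80 (SE 0.29, edgeR adjusted p = 0.000192), the lowest adjusted p of the comparison. In ruxolitinib mouse 1 the value rests on 6 counts, which is under the background of that mouse; without it the log2 fold change was -1.84 (edgeR adjusted p = 0.000558). Igll1 was called in all 7 fits that left out 1 mouse, with a log2 fold change from -2.77 without ruxolitinib mouse 2 to -1.37 without ruxolitinib mouse 3.

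Pax5 encodes the transcription factor that commits cells to the B lineage. It was at 93.6, 54.2 and 68.2 in ruxolitinib mice 1 to 3, at 201 and 163 with the vehicle of ruxolitinib and at 269 and 166 with the vehicle of venetoclax. The groups did not overlap, and venetoclax-vehicle mouse 1 was the highest. Pax5 fell by 1.59 on the log2 scale (SE 0.32, edgeR adjusted p = 0.0034), and without ruxolitinib mouse 2 the adjusted p was 0.104. Against the vehicle of ruxolitinib alone it was 0.0643 at a log2 fold change of -1.46.

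Rag1 encodes a subunit of the recombinase that joins the gene segments of antigen receptors. It was at 33, 20.2 and 12.4 in the treated mice, against 64.9 and 44.6 with the vehicle of ruxolitinib and 69.2 and 53.0 with the vehicle of venetoclax. Again no treated mouse reached the lowest vehicle-treated mouse. Rag1 fell by 1.59 (SE 0.35, edgeR adjusted p = 0.00681), and the adjusted p was 0.104 without ruxolitinib mouse 2 and 0.0864 without ruxolitinib mouse 3. In ruxolitinib mouse 1 it too rests on 6 counts, under background, and without that mouse it fell by 1.71 (edgeR adjusted p = 0.0062). Against the vehicle of ruxolitinib alone the log2 fold change was -1.51 (edgeR adjusted p = 0.0643).

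Il7r encodes the alpha chain of the interleukin-7 receptor. Of the 23 tested JAK-coupled receptors it alone was called (lower, as 1.07% of all tested genes were). Its normalised count was 110, 64.9 and 38.4 with ruxolitinib, 181 and 127 with its vehicle and 167 and 139 with the vehicle of venetoclax. The treated mice spread widely and all lay below the vehicle-treated mice. Il7r fell by 1.29 (SE 0.27, edgeR adjusted p = 0.005), and without ruxolitinib mouse 3 by 0.98, with an adjusted p of 0.0892. Without ruxolitinib mouse 2 the edgeR adjusted p was 0.0776, and against the vehicle of ruxolitinib alone 0.0573. The STAT dimer site is written TTCNNNGAA, a motif that reads the same on both strands. It was searched in the 250 bases before the start of the called genes, since these genes moved in mice given a JAK inhibitor; 8 of the 9 had such a window in RefSeq (GRCm38.p6). The window of Il7r held the motif, its first base 142 bases before the start, and those of the other 7 did not. Of all 32851 windows of this length, 7.02% held it, so the match is a description and no test of STAT binding. The window of Il7r, chr15:9529877-9530126 on the minus strand, and that of Igll1, chr16:16863986-16864235 on the minus strand, shown because it belongs to the gene with the lowest p and lacks the motif, read 5′ to 3′ as follows, with the motif in capitals.
Il7r: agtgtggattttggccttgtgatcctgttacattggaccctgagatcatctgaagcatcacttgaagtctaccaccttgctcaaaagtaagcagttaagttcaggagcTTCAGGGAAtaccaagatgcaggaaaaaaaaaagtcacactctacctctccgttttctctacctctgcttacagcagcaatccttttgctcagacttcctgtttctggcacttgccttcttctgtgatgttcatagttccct
Igll1: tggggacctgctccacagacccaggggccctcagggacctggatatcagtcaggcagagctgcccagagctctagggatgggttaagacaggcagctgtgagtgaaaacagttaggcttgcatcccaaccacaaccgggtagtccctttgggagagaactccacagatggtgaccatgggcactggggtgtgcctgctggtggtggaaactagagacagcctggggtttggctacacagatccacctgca

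Dpp4 encodes the cell surface peptidase CD26, which is found on T cells and other leukocytes and trims chemokines. It was the most uniform of the genes that fell, at 38.5, 43.9 and 42.2 in the treated mice, 116 and 82.7 with the vehicle of ruxolitinib and 123 and 124 with the vehicle of venetoclax. The mean of the treated mice was 41.5 ± 2.75 (SD, n = 3). Dpp4 fell by 1.39 (SE 0.27, edgeR adjusted p = 0.0034), and in ruxolitinib mouse 1 it rests on 7 counts, under background. Without ruxolitinib mouse 2 its edgeR adjusted p was 0.0548, and against the vehicle of ruxolitinib alone 0.0643. Cd22, an inhibitory receptor of B cells, was at 38.5, 26.1 and 55.8 with ruxolitinib, 85.7 and 64.1 with its vehicle and 151 and 73.2 with the vehicle of venetoclax. The gap between the highest treated and the lowest vehicle-treated mouse was small. Cd22 fell by 1.27 (SE 0.34, edgeR adjusted p = 0.041), and it lost its call without venetoclax-vehicle mouse 1 (edgeR adjusted p = 0.263), ruxolitinib-vehicle mouse 1 (0.0668), ruxolitinib mouse 1 (0.0762) or ruxolitinib mouse 2 (0.448). In ruxolitinib mouse 1 it also rests on 7 counts, under background. It was not called in 9 of 15 other alternatives, among them scaling by the total count (adjusted p = 0.106) and the vehicle of ruxolitinib alone as control (adjusted p = 0.865), both by edgeR.

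Both called genes that rose are used by developing red cells. Tfrc encodes the transferrin receptor, through which erythroblasts and other dividing cells take up iron. Its normalised count was 550, 641 and 487 in ruxolitinib mice 1 to 3, 347 and 379 with the vehicle of ruxolitinib and 348 and 306 with the vehicle of venetoclax. Every treated mouse was above every vehicle-treated mouse. Tfrc rose by 0.70 (SE 0.18, edgeR adjusted p = 0.0321). It kept its call only without ruxolitinib-vehicle mouse 2 or ruxolitinib mouse 3 among the 7 fits that left out 1 mouse, where the adjusted p ranged from 0.025 to 0.264. Nor was it called in 9 of 15 other alternatives, among them TMM scaling (edgeR adjusted p = 0.13) and DESeq2 (adjusted p = 0.0552). Against the vehicle of ruxolitinib alone Tfrc rose by 0.63 (edgeR adjusted p = 0.608). Under total-count scaling its edgeR adjusted p was 0.161. Cd36, a scavenger receptor present on erythroid progenitors and also on macrophages and platelets, was at 49.5, 66.5 and 64.5 with ruxolitinib, 26.9 and 36.5 with its vehicle and 17.3 and 14.7 with the vehicle of venetoclax. The treated mice were highest and the mice given the vehicle of venetoclax lowest. Cd36 rose by 1.43 (SE 0.34, edgeR adjusted p = 0.0156); against the vehicle of ruxolitinib alone the log2 fold change was 0.97, with an adjusted p of 0.683. The call was also lost without either mouse given the vehicle of venetoclax (edgeR adjusted p = 0.0749 and 0.125) and without ruxolitinib mouse 2 (0.151) or 3 (0.052). The other 7 genes of the erythroid list, Gata1 among them, are not analysed here, so the erythroid lineage was read from these 2 genes alone.

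**Figure D2:**
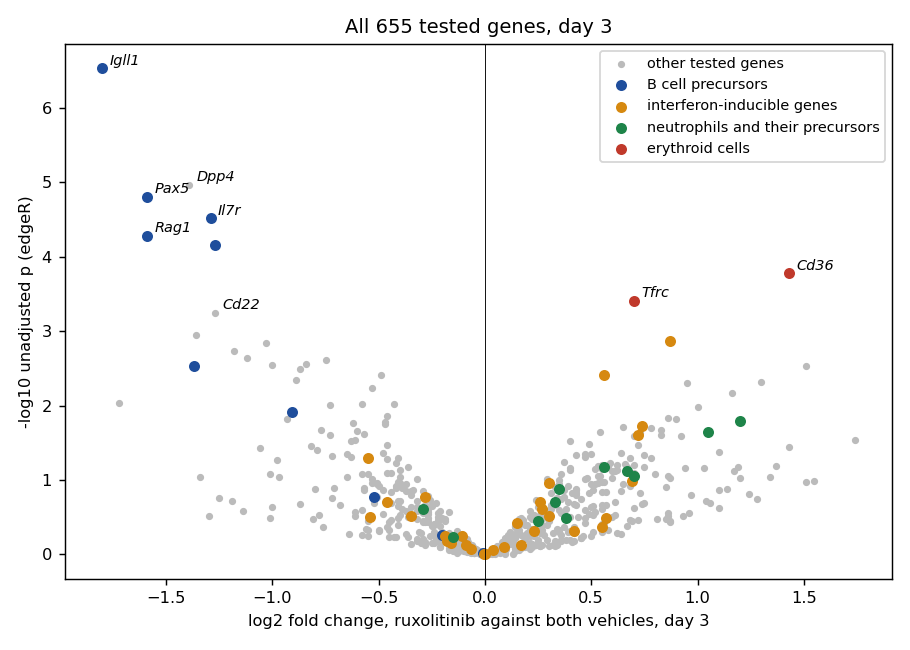
Log2 fold change of ruxolitinib against both vehicles on day 3 (horizontal axis) against the -log10 of the unadjusted edgeR p (vertical axis) for the 655 tested genes, with 4 gene lists in colour and 8 of the 9 called genes named. Of the genes that fell, 5 belong to the list of B cell precursors, and both that rose belong to the erythroid list.

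Most called genes belonged to the list of B cell precursors. Of its 10 tested genes, all 10 had a log2 fold change under 0, with a median of -1.28 against 0.05 over all genes, and 5 were called lower, where 1.07% of all tested genes were, among them Igll1, Pax5, Rag1 and Il7r. Their summed normalised count was 666, 526 and 436 in ruxolitinib mice 1 to 3, against 1034 and 925 with the vehicle of ruxolitinib and 1121 and 909 with the vehicle of venetoclax. The sums did not overlap, and those of the vehicle-treated mice lay within a narrow range. There were also 5 called members without ruxolitinib mouse 1 and without ruxolitinib-vehicle mouse 2, but 1 without ruxolitinib mouse 2 and 3 without ruxolitinib mouse 3. With the vehicle of ruxolitinib alone as control 1 member was called (median -1.19). Against untreated mice 1 was called (median -1.01), and in a fit of only the 7 mice 3 were (median -1.27). A further 2 members were lower at an unadjusted p under 0.05, as 6.72% of all tested genes were, and are named after their values were seen: Cd79a, which encodes a signalling chain of the B cell receptor, with a log2 fold change of -1.37 (edgeR adjusted p = 0.1) at a mean of 10.6 in vehicle-treated mice, and Blk, a kinase of B cells, with -0.91 (edgeR adjusted p = 0.245).

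Genes of mature B cells gave a mixed picture. Of 10 tested genes, 7 had a log2 fold change under 0 and 3 above it. Only Cd22 of them was called (lower, as 1.07% of all tested genes were). The median was -0.11, but 0.11 without ruxolitinib-vehicle mouse 2, -0.53 over the 5 of them whose mean count reached 20, -0.59 after background subtraction (9 of 10 under 0) and -0.51 against untreated mice (all 10 under 0). Their summed normalised count was 440, 467 and 542 with ruxolitinib, below all vehicle-treated mice at 613 to 851. Ms4a1, which encodes CD20 and marks B cells from the late pre-B stage, was at 44, 43.1 and 27.3 with ruxolitinib and at 28.2, 61.6, 33.4 and 37.3 with the vehicles, so the groups overlapped (log2 fold change -0.11, SE 0.32). Cd37, a tetraspanin of mature B cells, had a log2 fold change of -0.53 (edgeR adjusted p = 0.147), and Pou2f2, which encodes the octamer factor OCT2, -0.89 (edgeR adjusted p = 0.128). Pou2af1, the B cell co-activator that binds OCT2, was at 27.5, 22.2 and 18.6 with ruxolitinib and at 34.9 to 63.4 with the vehicles, without overlap (log2 fold change -1.18, edgeR adjusted p = 0.093). Of the plasma cell list, 0 of 5 tested genes were called, with Irf4 at -0.73 and Xbp1 at 0.49.

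The lymphoid regulators Ets1 and Ikzf1 did not pass the edgeR test, although their groups did not overlap. Ets1 was at 242, 229 and 217 with ruxolitinib and at 290 to 342 with the vehicles (log2 fold change -0.49, SE 0.16, edgeR adjusted p = 0.116); DESeq2 called it (adjusted p = 0.0259), and the other 14 alternatives did not. Ikzf1, which encodes Ikaros, was at 138, 144 and 145 against 171 to 206 (log2 fold change -0.43, SE 0.16, edgeR adjusted p = 0.206). Both sets of treated mice were tight, and the differences were small beside those of the B lineage genes. Of the T cell list 13 of 16 genes had a log2 fold change under 0, and 0 were called by edgeR or DESeq2. The median was -0.56, but -1.4 after background subtraction and -0.22 by limma with a pseudocount of 10. At an unadjusted p under 0.05 stood 3, all lower, where 6.72% of all tested genes were lower at that p. Its summed normalised count was 242, 157 and 143 with ruxolitinib and 192 to 250 with the vehicles. The overlap came from ruxolitinib mouse 1, in which the lowest value of 1 count equals a normalised count of 5.5. Without that mouse the median was -0.63, with 14 of 16 genes under 0, and without ruxolitinib mouse 2 or 3 it was -0.41 or -0.42. Cd3d, a chain of the T cell receptor complex, was at a mean of 33.5 and Lck, a kinase of T cells, at 22.3 in vehicle-treated mice. One gene that was listed there, Cd3eap, encodes an RNA polymerase I subunit and no T cell protein. Of the NK cell list 0 of 18 genes were called by edgeR (1 at an unadjusted p under 0.05) or DESeq2, and 1 by limma after background subtraction; over all tested genes 12.1% stood under that p. The median of this list was -0.30, but 0.038 and 0.035 by limma with pseudocounts of 1 and 10.

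**Figure D3:**
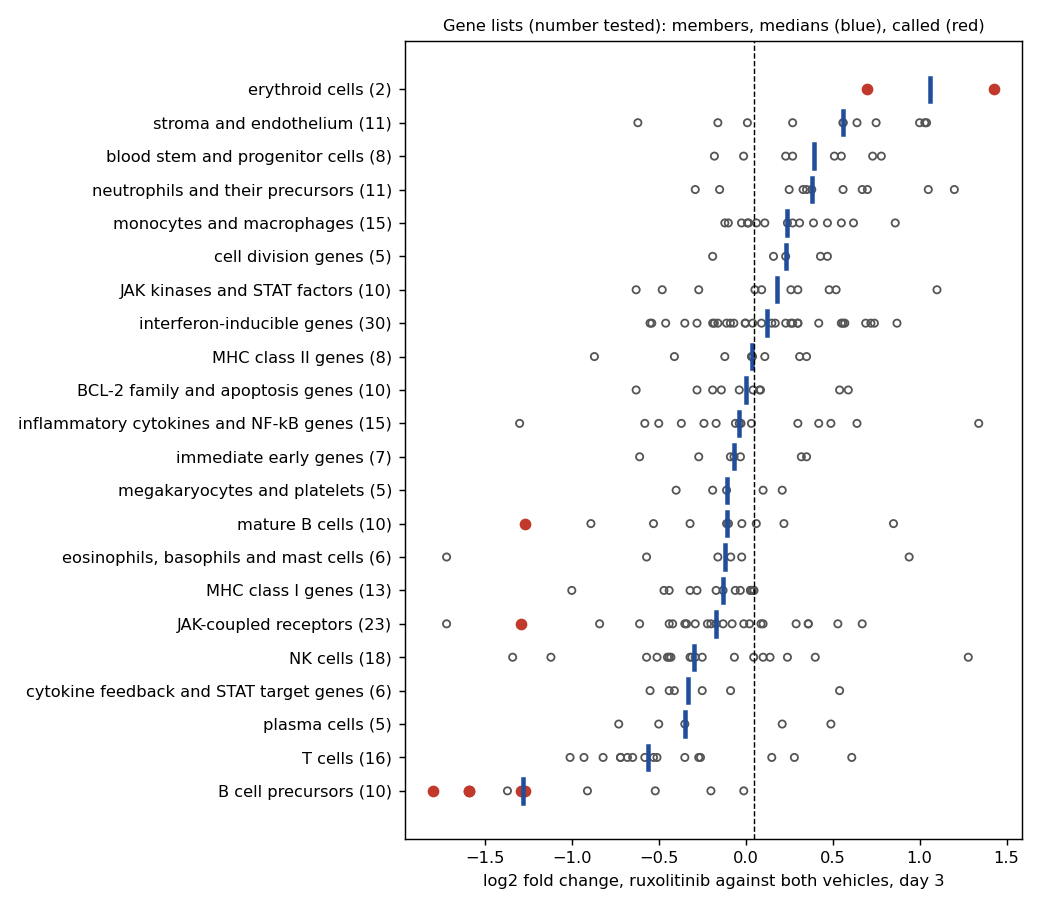
Log2 fold changes of the tested members of 22 gene lists on day 3 (horizontal axis), with the number tested in brackets. Open circles are genes that were not called, red circles called genes, blue bars list medians, and the dashed line marks the median of all tested genes; the B cell precursors have the lowest median (-1.28) and the 2 erythroid genes the highest (1.06).

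Genes of neutrophils, monocytes, progenitors and stroma lay mostly above 0 against the pooled vehicles, without passing the test. Those of eosinophils, basophils and mast cells did not, with 1 of 6 above 0 and a median of -0.12. Nor did those of megakaryocytes and platelets, with 2 of 5 and a median of -0.11. The first median was -0.55 without ruxolitinib mouse 1, -0.65 after background subtraction and -0.94 against untreated mice. Without ruxolitinib mouse 2 or 3, 3 of those 6 genes lay above 0. The second median was 0.033 without ruxolitinib-vehicle mouse 2 (4 of 5 above 0), 0.18 without ruxolitinib mouse 2 and 0.21 against untreated mice. In the list of neutrophils and their precursors 9 of 11 genes were above 0, the median was 0.38 (0.13 without ruxolitinib mouse 2, 0.68 without ruxolitinib-vehicle mouse 2 and 0.045 against untreated mice) and 0 were called. Elane, the neutrophil elastase that promyelocytes make, was at 193, 489 and 219 with ruxolitinib, at 77.1 and 271 with its vehicle and at 62.3 and 128 with the vehicle of venetoclax. The groups overlapped only through ruxolitinib-vehicle mouse 2 (log2 fold change 1.20, SE 0.48, edgeR adjusted p = 0.277), and without that mouse Elane was called, at 1.79 (edgeR adjusted p = 0.0261), while without ruxolitinib mouse 2 it was at 0.61. Ctsg, the cathepsin of the same granules, had a log2 fold change of 1.05 (SE 0.44, edgeR adjusted p = 0.302), Mpo 0.67 and Lcn2 0.70. Without ruxolitinib mouse 2 these were 0.027, 0.23 and 0.22, and without ruxolitinib-vehicle mouse 2 they were 1.34, 1.04 and 0.93. The summed normalised count of the list was 96728, 85226 and 93724 with ruxolitinib, 105015 and 69972 with its vehicle and 111732 and 98680 with the vehicle of venetoclax, so the treated mice lay below all vehicle-treated mice but ruxolitinib-vehicle mouse 2. Most of that sum was S100a8, a calcium-binding protein of neutrophils named after its values were seen, at 84169, 65779 and 82154 against 95582, 56604, 103122 and 88451 (log2 fold change -0.15, edgeR adjusted p = 0.885). In the list of monocytes and macrophages 12 of 15 genes were above 0 (6 of 15 after background subtraction and 4 of 15 against untreated mice) and 0 were called, with Cd68, a lysosomal protein of macrophages, at 55.0, 91.0 and 54.5 against 36.7, 81.1, 33.4 and 33.9. Here too the high vehicle-treated value was that of ruxolitinib-vehicle mouse 2.

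The same mouse was high in blood stem cell and stromal genes. The summed normalised count of the stem and progenitor list was 327 to 358 with ruxolitinib, 380 in ruxolitinib-vehicle mouse 2 and 225 to 250 in the other 3 vehicle-treated mice. That of the stroma and endothelium list was 440 to 510 with ruxolitinib, 484 in ruxolitinib-vehicle mouse 2 and 249 to 302 in the others. That of the B cell precursors was 925 in this mouse, within the range of the other vehicle-treated mice. None of the 8 stem cell genes and none of the 11 stromal genes were called, and 9 of the stromal genes were above 0, but 6 against the vehicle of ruxolitinib alone and 5 against untreated mice. Cxcl12, the chemokine with which marrow stroma retains stem cells and B cell precursors, was at 93.6, 129 and 181 with ruxolitinib, 57.6 and 98.1 with its vehicle and 38.1 and 81.0 with the vehicle of venetoclax (log2 fold change 1.00, SE 0.37, edgeR adjusted p = 0.213). Cd34, a surface protein of stem and progenitor cells, had a log2 fold change of 0.73 (edgeR adjusted p = 0.302), and Pecam1, an adhesion molecule of endothelium and of many leukocytes, -0.62 (edgeR adjusted p = 0.277). How far a different make-up of this marrow sample bears on the counts of called genes was not tested beyond the fits without it.

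The kinases that ruxolitinib binds were not called. Of the 10 tested JAK kinases and STAT factors 0 were called, with a median of 0.18 (0.063 without ruxolitinib mouse 2). Jak1 was at 160, 186 and 159 with ruxolitinib and at 148 to 185 with the vehicles (log2 fold change 0.05, SE 0.24), a difference within the spread between mice whose sign turned under 4 alternatives and without ruxolitinib mouse 2. Jak2 was at 110, 86.6 and 76.9 against 52.7, 89.2, 47.3 and 52.5 (log2 fold change 0.52, SE 0.28, edgeR adjusted p = 0.448), again with ruxolitinib-vehicle mouse 2 the highest of its group. Tyk2 and Jak3 lay lower in all treated mice than in all vehicle-treated mice, with log2 fold changes of -0.63 (SE 0.28, edgeR adjusted p = 0.326) and -0.48 (SE 0.23, edgeR adjusted p = 0.4). Of the STAT factors, the largest fold change was in Stat4, at 1.10 (SE 0.52, edgeR adjusted p = 0.4), but its normalised counts were 5.5 to 6.73 with ruxolitinib and 1.15 to 3.93 with the vehicles, and it was above background in 3 of the 7 mice. Other tested STAT factors had log2 fold changes of 0.30 (Stat2), 0.48 (Stat3), 0.09 (Stat5b) and -0.27 (Stat6), and that of Stat3 was 0.02 without ruxolitinib mouse 2.

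Among the 23 tested JAK-coupled receptors 15 had a log2 fold change under 0, and the median was -0.17 (0.089 without ruxolitinib mouse 2). Il7r alone was called (lower, as 1.07% of all tested genes were). Without ruxolitinib mouse 2 or 3, 0 of the 23 were called. Il2rb, the beta chain shared by the receptors for interleukin-2 and interleukin-15, was at 88.1, 75.6 and 129 with ruxolitinib and at 190, 126, 232 and 155 with the vehicles (log2 fold change -0.84, SE 0.26, edgeR adjusted p = 0.1). Ifnar2, a chain of the type I interferon receptor, had a log2 fold change of 0.53 and Il4ra, the interleukin-4 receptor alpha chain, -0.42, neither called. Of 6 tested feedback and STAT target genes 0 were called, with Bcl2l1, which encodes the survival protein BCL-XL, at 0.54 (edgeR adjusted p = 0.302), Osm at -0.44 and Myc at -0.25. Of the BCL-2 family and apoptosis genes 0 of 10 were called, with Fas at -0.63 and Bid at 0.59.

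No interferon-inducible gene was called on day 3. Of 30 tested genes 17 lay above 0, the median was 0.12 (-0.21 after background subtraction), and the 4 genes at an unadjusted p under 0.05 (Rsad2, Isg20, Isg15 and Irf7) were all above 0; over all tested genes 12.1% stood under that p, with 5.34% higher. Rsad2, which encodes the antiviral enzyme viperin, was at 99.1, 107 and 135 with ruxolitinib, 64.9 and 94.1 with its vehicle and 61.1 and 36.3 with the vehicle of venetoclax. The treated mice were all above the vehicle-treated mice, narrowly so above ruxolitinib-vehicle mouse 2 (log2 fold change 0.87, SE 0.25, edgeR adjusted p = 0.0773). Isg20, an interferon-induced exonuclease, was at 237, 191 and 242 against 132 to 172 (log2 fold change 0.56, SE 0.18, edgeR adjusted p = 0.116). Without ruxolitinib-vehicle mouse 2 both were called, at 1.14 (edgeR adjusted p = 0.00534) and 0.64 (edgeR adjusted p = 0.0477). Oas2 and Ifit3 lay on the other side, at -0.55 and -0.35. The summed normalised count of the list was 1679, 1711 and 1620 with ruxolitinib and 1418 to 1550 with the vehicles, without overlap. As single genes, 3 of the 30 did not overlap, all higher, where 4.43% of all tested genes were higher without overlap. After background subtraction 8 of the 30 lay above 0.

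MHC class II genes, which present peptides to CD4 T cells, were not called in any of 8 tested members, with a median log2 fold change of 0.04. It was -0.013 under TMM scaling and by DESeq2, -0.068 against the vehicle of ruxolitinib alone and -0.081 without ruxolitinib mouse 2, where 7 of the 8 lay under 0. H2-Aa was at 286, 610 and 319 with ruxolitinib and at 189, 548, 271 and 291 with the vehicles, and Cd74, the invariant chain, at 462, 734 and 543 against 399, 813, 468 and 492. In both genes the highest values were those of ruxolitinib mouse 2 and ruxolitinib-vehicle mouse 2. The log2 fold changes were 0.35 for H2-Aa, 0.11 for Cd74, 0.03 for H2-Ab1, -0.12 for H2-Eb1, 0.04 for H2-DMb1, 0.31 for H2-DMb2 and -0.41 for the class II regulator Ciita. The sign of H2-Ab1 turned under TMM scaling, and that of H2-DMb1 after background subtraction. H2-Ob, a chain of the H2-O chaperone that is prominent in B cells, was the exception at 55.0, 47.5 and 73.1 against 105, 73.0, 150 and 98.7 (log2 fold change -0.87, SE 0.28, edgeR adjusted p = 0.106). Of 13 class I genes 0 were called, with Tap2, a peptide transporter subunit, at -1.0 (SE 0.31, edgeR adjusted p = 0.1), Psmb8, an immunoproteasome subunit, at -0.47 and Tap1 at -0.32. In these 3 and in 3 others of the 13 the treated mice lay below the vehicle-treated mice, which held for 5.34% of all tested genes.

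Other genes whose groups did not overlap also missed the threshold. Lower in all treated mice were Tlr1, a partner of Toll-like receptor 2 (log2 fold change -1.03, edgeR adjusted p = 0.0773), Tfeb, a regulator of lysosome genes (-0.75, edgeR adjusted p = 0.1) and Nfkb2, which encodes an NF-kB subunit (-0.58, edgeR adjusted p = 0.206). Higher in all treated mice was Fcgr3, a low-affinity receptor for IgG, at 55.0, 65.7 and 47.1 with ruxolitinib, 33.1 and 38.1 with its vehicle and 10.4 and 13.3 with the vehicle of venetoclax (log2 fold change 1.30, SE 0.43, edgeR adjusted p = 0.129). The 2 vehicle groups stood well apart in this gene. Prg2, an eosinophil granule protein, and Itgb3, the integrin chain of platelets, were at -0.57 and -0.40, with overlapping groups.

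The study sampled 3 days, and whether the change of day 3 differed from that of another day was tested as a difference of differences. Against day 1, 18 genes differed (2.75%), with 12 more positive on day 3 (1.83%) and 6 more negative (0.916%). The more negative calls depended on the processing: the split was 13 and 2 under TMM scaling, 10 and 2 under total-count scaling, 14 and 1 with all 20 housekeeping probes and 13 and 1 by DESeq2. Interferon-inducible genes made up most of the first group, with 10 of 30 tested. In this list 29 of 30 genes had a more positive change on day 3, and the median difference was 1.05 against -0.05 over all genes. Rsad2 was at 22, 31.7 and 19.7 with ruxolitinib on day 1 against 80.8 to 101 with the vehicles, a log2 fold change of -1.84 where day 3 gave 0.87, and the difference was 2.71 (edgeR adjusted p = 4.37e-06). Treated mice thus lay below all vehicle-treated mice on day 1 and above them on day 3. Isg15, an interferon-induced ubiquitin-like protein, was at 2.19 to 3.96 with ruxolitinib on day 1 and at 14.9 to 44 on day 3, with vehicle-treated mice at 8.63 to 18.3 and 9.33 to 17.8 (difference 2.98, edgeR adjusted p = 0.000151). Its day 1 values with ruxolitinib rest on 5, 7 and 4 counts, above background in 1 of the 3 mice. The day 3 values rest on 8, 59 and 12 counts in ruxolitinib mice 1 to 3, all above background. The highest of them, 44, comes from the 8 counts of mouse 1. The size of this difference is therefore imprecise on both days. Ifit3 was at 6.02 to 8.48 with ruxolitinib on day 1 against 47.6 to 60.5 with the vehicles, and on day 3 its groups overlapped (difference 2.51, edgeR adjusted p = 0.00222). The difference was 1.42 for Isg20, 1.86 for Irf7, 1.68 for Oas2, 1.62 for Xaf1 and 1.12 for Cmpk2, each called. In ruxolitinib mouse 1 of day 3, Irf7, Xaf1 and Tlr1 were not above background, at 4, 1 and 4 counts.

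**Figure D4:**
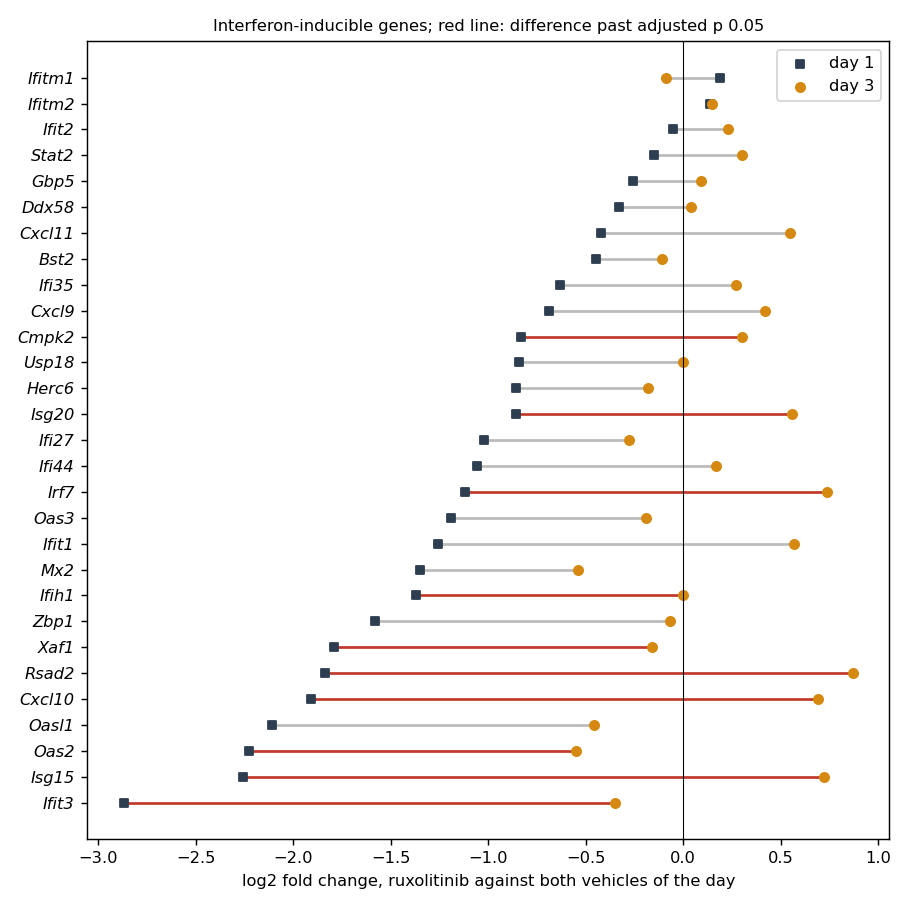
Log2 fold change of ruxolitinib against both vehicles of the day (horizontal axis) for 29 of the 30 tested interferon-inducible genes on day 1 (squares) and day 3 (circles), with a red line where the difference between the days was called. In 28 of these 29 genes the circle lies to the right of the square.

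Some B lineage genes and both erythroid genes also differed from day 1. Of the B cell precursors 2 of 10 had a more negative change that was called and of the mature B cell genes 1 of 10, where 0.916% of all tested genes did. Pax5 was not called on day 1, with a log2 fold change of -0.12, and the difference was -1.47 (edgeR adjusted p = 0.0444). Cd22 had a log2 fold change of 0.36 on day 1 and a difference of -1.63 (edgeR adjusted p = 0.0296). Igll1 was already lower on day 1, at 46.4, 50.3 and 32.8 against 69.3 to 92.8 with the vehicles (log2 fold change -0.94, edgeR adjusted p = 0.0164, on a day with 31 called genes, 4.73%, of which 18 fell, 2.75%), and its difference was -0.86 (edgeR adjusted p = 0.327). In the 14 fits that left out 1 mouse, Pax5 kept this call in 4, Cd22 in 9, Cd36 in 6 and Tfrc in all 14. Under 13 other alternatives Pax5 kept it in 5, Cd22 in 8, Cd36 in 9 and Tfrc in all 13. The difference was -1.16 for Rag1 and -0.70 for Il7r, neither called. Tfrc was at 259, 355 and 290 with ruxolitinib on day 1, below all vehicle-treated mice of that day at 401 to 474, and above them on day 3 (difference 1.23, edgeR adjusted p = 0.0034). For Cd36 the difference was 1.76 (edgeR adjusted p = 0.0296). H2-Ob and Tlr1 were the other named genes with a more negative change on day 3 that was called, at -1.31 (edgeR adjusted p = 0.0418) and -1.63 (edgeR adjusted p = 0.00769), calls that held in 5 and 13 of these 14 fits and under 6 and 10 of these 13 alternatives. All 8 tested MHC class II genes had a more negative change on day 3, with a median difference of -0.83 against -0.05 over all genes, and H2-Ob alone was called. On day 1 all 8 lay above 0, with a median of 0.77 against 0.14 over all genes. Of these 8, 4 were called higher on day 1, as 13 of all 655 tested genes were.

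By day 7 the change of Igll1 was no longer that of day 3. Igll1 was at 184, 139 and 168 with ruxolitinib on day 7 against 112 to 167 with the vehicles, a log2 fold change of 0.24, and the difference of day 3 minus day 7 was -2.05 (edgeR adjusted p = 0.00169). Igll1 kept this call in 26 refits and lost it in 1, under total-count scaling, where 0 genes were called. Only 2 genes (0.305%) differed between these days, 1 in each direction (0.153%), and 30 (4.58%) stood at an unadjusted p under 0.05. The other was Il2ra, the interleukin-2 receptor alpha chain, which fell on day 7, as 2 genes did (0.305%), and was not called on day 3 (difference 1.91, edgeR adjusted p = 0.0305). It was not above background in 1 of the 3 treated mice on either day, and it was not called under TMM scaling, total-count scaling or with all 20 housekeeping probes. Pax5, Rag1 and Cd22 were not called on day 7, with log2 fold changes of -0.85, -1.14 and -0.61, and none of them differed from day 3. Since all mice of a day shared a run, levels are not compared between days.

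**Figure D5:**
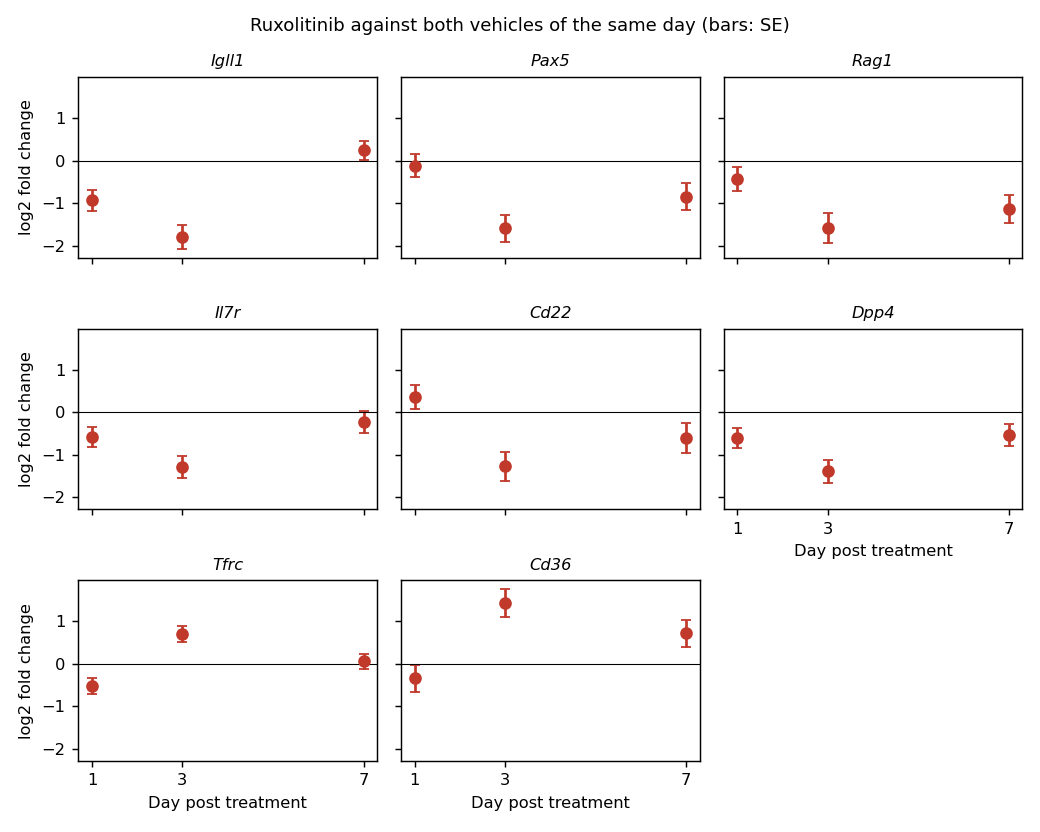
Log2 fold change of ruxolitinib against both vehicles of the same day (vertical axis, bars are SE) on days 1, 3 and 7 (horizontal axis) for 8 of the 9 genes called on day 3. Igll1 goes from -0.94 on day 1 to -1.80 on day 3 and 0.24 on day 7, and Tfrc from -0.52 to 0.70 and 0.05.

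Compared directly with venetoclax-treated mice of day 3, which avoids the shared vehicle-treated mice, 6 genes differed (0.916%), 4 lower with ruxolitinib (0.611%) and 2 higher (0.305%); under total-count scaling 2 were lower and 3 higher, under TMM scaling 4 and 1. Igll1 was at 137, 148 and 120 with venetoclax, above all 3 ruxolitinib-treated mice, and was lower with ruxolitinib by 2.28 on the log2 scale (edgeR adjusted p = 2.85e-06). Rag1 was at 75.7, 124 and 42.5 with venetoclax (log2 difference -2.06, edgeR adjusted p = 0.00042) and Pax5 at 157, 258 and 104 (log2 difference -1.39, edgeR adjusted p = 0.0243). Venetoclax mouse 3 was the lowest of its group in all 3 genes and still above the ruxolitinib-treated mice. Cd22, Cd36 and Tfrc did not pass this test, with log2 differences of -0.35, 0.74 and 0.56. Gzma, a granzyme of cytotoxic cells, was lower with ruxolitinib (log2 difference -1.68, edgeR adjusted p = 0.00748), with venetoclax-treated mice at 27.8 to 42.5 and ruxolitinib-treated mice at 7.44 to 13.8. Higher with ruxolitinib were H2-DMb2, at 44 to 49.9 against 16.5 to 20.6 (log2 difference 1.31, edgeR adjusted p = 0.0188), and Isg20 (log2 difference 0.78, edgeR adjusted p = 0.0334). In the 6 fits that left out 1 mouse, the call of Gzma held in 4, those of Pax5 and H2-DMb2 in 2 and that of Isg20 in 1, and Gzma was not above background in ruxolitinib mouse 1, at 2 counts. Against the vehicles of day 3, Gzma and H2-DMb2 were called in 0 of the 7 fits that left out 1 mouse. Their log2 fold changes there ranged from -1.03 to -0.24 and from 0.18 to 0.63.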

How the data were processed

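The deposited files hold raw barcode counts for every probe, 1 file per mouse, which the authors exported from the nCounter without normalisation; the normalisation of their methods (nCounter Advanced Analysis version 2.0.115) is not in these counts. The panel is named differently in the study's methods and design text (PanCancer Immune Profiling or Immunology), and the genome build of the probes is not given in the sources used here. Groups came from the sample labels; the header of the day 3 run reads day 2, whereas labels and methods say day 3. Nothing states whether mice of a group were processed separately, so p-values measure the spread between these samples.

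Scale factors were geometric means over 11 housekeeping probes (of 20), those above background in all 33 mice. Background in a mouse was set at 2 SD above the mean count of its 8 negative probes. Of 750 endogenous genes, 655 were above background in at least 2 mice and entered edgeR 4.0.16 (R 4.3.3), whose quasi-likelihood test was run in 1 model of 10 arms, each drug on each day, the pooled vehicles of each day, and untreated mice. P-values were adjusted by Benjamini-Hochberg over all tested genes. The SE is the absolute log2 fold change divided by the root of the F statistic. The scripts were tested on simulated data. The common dispersion was 0.0391 (biological coefficient of variation 19.8%, 23 residual degrees of freedom). The lowest deposited count is 1, and the number of counts limits precision most in ruxolitinib mouse 1, where 403 tested genes were not above background.

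Named genes were up to 25 called genes, then, to a total of 20, those next by p whose groups did not overlap and whose mean count was at least 20, then up to 4 members of each list with the largest fold change at that mean count, the JAK, STAT and MHC class II genes, and up to 10 called in each test of a difference; not all of them are printed, and some genes, 1 of them called, are not reported here. Cd79a, Blk, S100a8, Il7r in the promoter search and the values of lists in single mice were singled out after values were seen. The comparison and the gene lists were chosen with earlier results of these data known. Alternatives were scaling by TMM, the total count or all 20 housekeeping probes, DESeq2 1.42.0, limma 3.58.1 with a pseudocount of 1 or 10, a robust fit, other filters on low counts, background subtraction, only the 7 mice compared, 13 groups, a replicate block, either vehicle alone or the untreated mice in place of the pooled vehicles, and fits without 1 mouse at a time. Of the gene symbols, 734 matched RefSeq (GRCm38.p6), 8 through a synonym and 8 did not. Python 3.11.15 drew the figures with matplotlib 3.10.9.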

Additional observations from a re-analysis of the deposited data

Results flagged for a closer look

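In some quantities 1 of the 4 vehicle-treated mice of day 3 lay far from the other 3, by a gap of over 0.829 of the whole range (Dixon's critical value for 4 samples). Of 79 quantities tested this way, 8 met it, and chance alone gives about 1 in 20. Ruxolitinib-vehicle mouse 2 was the high mouse for Cd68 (0.931), Ifnar2 (0.973), Jak2 (0.872) and Stat3 (0.846). Venetoclax-vehicle mouse 1 was the low mouse for Igll1 (0.92) and the high mouse for Stat6 (0.865). Ruxolitinib-vehicle mouse 1 was the high mouse for H2-DMb1 (0.967), and venetoclax-vehicle mouse 2 had the highest total of endogenous counts (0.858).

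The change with ruxolitinib on day 3 differed from that on day 1, by the edgeR test of the difference, in genes that the interferon response switches on: Rsad2 (2.71 on the log2 scale), Isg15 (2.98, on day 1 counts above background in 1 of 3 treated mice), Isg20 (1.42), Ifit3 (2.51), Cmpk2 (1.12), Xaf1 (1.62), Oas2 (1.68) and Irf7 (1.86). It was also more positive on day 3 for Tfrc (1.23) and Cd36 (1.76), and more negative for Tlr1 (-1.63), Cd22 (-1.63), H2-Ob (-1.31) and Pax5 (-1.47). Leaving out 1 mouse at a time, the calls of Rsad2, Isg15, Isg20, Ifit3, Cmpk2 and Tfrc held in all 14 fits, those of Xaf1, Oas2, Irf7 and Tlr1 in 13, that of Cd22 in 9, that of Cd36 in 6, that of H2-Ob in 5 and that of Pax5 in 4.

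Against day 7, the change differed for Igll1 (-2.05) and Il2ra (1.91), the first in all 14 fits that left out a mouse and the second in 7. Against venetoclax on day 3 it differed for Igll1 (-2.28), Rag1 (-2.06), Pax5 (-1.39), Gzma (-1.68), H2-DMb2 (1.31) and Isg20 (0.78). The calls of Igll1 and Rag1 held in all 6 fits that left out a mouse, that of Gzma in 4, those of Pax5 and H2-DMb2 in 2 and that of Isg20 in 1.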

How the results depend on the processing

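The 8 described genes called on day 3 kept their direction under 15 other alternatives, in the 7 fits that left out 1 mouse and with untreated mice as control, where Igll1 was the only one of them called (-1.61, adjusted p = 0.00915). In 92 of 120 refits under the 15 alternatives they kept their call, as Igll1 did in all 15, and in 37 of 56 refits that left out 1 mouse. The 9 called genes became 4 in a fit of only the 7 mice, 1 with the vehicle of ruxolitinib alone as control (12 with that of venetoclax) and 2 with untreated mice, and 2 to 33 when 1 mouse was left out. The replicate numbers are shared between groups but mark different mice: deviations of same-numbered ruxolitinib and vehicle mice correlated at 0.09 to 0.49 over 352 genes, and with the number as a replicate block 7 genes were called. The 18 genes that differed from day 1 became 8 and 6 with limma (pseudocounts of 1 and 10), 3 after background subtraction and 8 (without ruxolitinib mouse 2 of day 3) to 20 without 1 mouse, and none of the calls under limma or background subtraction was more negative. The 2 that differed from day 7 became 1 under TMM, all 20 housekeeping probes, DESeq2, limma with either pseudocount and background subtraction, 0 by edgeR under total-count scaling (26 genes at an unadjusted p under 0.05), and 1 to 2 without 1 mouse. The 6 that differed from venetoclax became 3 with limma (pseudocount 10), 2 after background subtraction and 2 to 8 without 1 mouse. Of the other named genes, DESeq2 called Ets1 and Tfeb, background subtraction Cd79a, a mean count of at least 20 Tlr1, the vehicle of venetoclax alone Rsad2, Fcgr3 and Col1a1, and 13 groups Rsad2 and Fcgr3. Without ruxolitinib-vehicle mouse 2, Cd68, Elane, Fcgr3, H2-Ob, Il2rb, Isg20, Pou2af1, Pou2f2, Rsad2, Tap2, Tfeb and Tlr1 were called, and Tfeb also without ruxolitinib mouse 3. The cause of these shifts was not tested, beyond the fewer mice in fits that leave some out.

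Genes within the spread between mice turned sign: H2-Ab1 (-0.04 under TMM, -0.035 DESeq2, -0.012 background subtraction, -0.019 with the venetoclax vehicle alone), Jak1 (-0.016 TMM, -0.0077 DESeq2, -0.0054 background subtraction, -0.011 block), H2-DMb1 (-0.24 background subtraction, -0.088 ruxolitinib vehicle alone), Stat2 (-0.021 background subtraction), Cd74 (-0.049), Col1a1 (-0.12) and S100a8 (0.024) with the ruxolitinib vehicle alone, and Ms4a1 (0.079) with the venetoclax vehicle alone. Without 1 mouse, Cd74 ranged from -0.10 to 0.37, H2-Aa from -0.096 to 0.73, H2-Ab1 from -0.062 to 0.12, H2-DMb1 from -0.23 to 0.26, Il2ra from -0.65 to 0.14, Jak1 from -0.042 to 0.12, Ms4a1 from -0.36 to 0.17 and Stat5b from -0.021 to 0.27. Scaling moved the median of all genes from -0.001 to 0.104.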
